A study of Mus musculus with 30 samples.

Results

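The genes described here code for LIF, CNTF and the parts of the pathway that starts at their shared receptor chain gp130. The members are 10 named genes, Lif, Lifr, Il6st, Cntf, Cntfr, Osmr, Il6ra, Clcf1, Stat3 and Socs3, a set of symbols for this pathway drawn up with earlier results of these data known, but with no measured value in its rule. Of these, 9 were found among the 16995 genes of the table and Clcf1 is not analysed here. RNA came from the intermediate laminae at spinal levels C5/C6 on the side denervated by a photothrombotic stroke of the right sensorimotor cortex in adult female C57BL/6 mice (C57BL/6J in the study's methods), and no transgene is named in the labels or methods. The groups were sham-operated mice (skull not illuminated, named Ctrl in the labels with no day, n = 5) and stroke mice killed 4 days post-injury (dpi, n = 4) or 7, 14, 28 or 42 days post-injury (n = 5 each). The laminae were trimmed out by hand with blades, so neurons, glia and vessels of the piece were sequenced together, and fewer cells of a type cannot be told apart from less RNA per cell.

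LIF and CNTF are signalling proteins of the interleukin-6 family. Each binds a receptor made of gp130 (coded by Il6st) and the LIF receptor (Lifr), and CNTF also needs its own binding chain (Cntfr). The oncostatin M receptor (Osmr) and the interleukin-6 receptor (Il6ra) pair with gp130 for other ligands. Janus kinases on these chains phosphorylate STAT3, which enters the nucleus and switches on target genes. One of these is Socs3, whose product binds gp130 and shuts the signal off again. In the nervous system the family is known for neuronal survival after axon injury and for driving astrocytes into a reactive state.

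All values are the authors' normalized CPM, that is, estimated reads of a gene scaled to its library's size, rounded to 0.1, so that 1 step is a large part of the value of the low genes. Every difference is given as a log2 fold change of value + 0.5 from 1 limma fit over the 29 animals, with its standard error (SE). A gene passed the test when its Benjamini-Hochberg adjusted p over all 16995 genes was under 0.05. A pseudocount of 0.5 understates the change of genes near or below a value of 1.

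STAT3 homodimers bind the palindrome TTCNNNGAA, which reads the same on both strands. It was searched in promoters from RefSeq (GRCm38.p6, 250 bases before to 50 after a transcript start), where the 9 measured members had 15 windows. It occurred in 1 window, that of Socs3, and in 9.55% of all 27025 genes with a promoter there. The stretch around it is shown because Socs3 is the member known as a direct STAT3 target. It lies at chr11:117969502-117969530 on the minus strand, and the motif (capitals) covers the bases from 154 to 146 before the RefSeq start used here. The annotated Socs3 gene begins further upstream, at 117970047, so the stretch lies inside that gene. GENCODE M21 places no Socs3 exon in it.
Socs3: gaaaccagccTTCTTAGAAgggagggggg

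In sham animals the levels of the 9 genes spanned a wide range. Per kilobase of the longest annotated coding transcript, Lifr had a mean of 16.1 CPM, Cntfr 13.0 and Il6st 11.4, and each of these overlapped its neighbour in this order over the 5 animals. Stat3 followed at 7.92 per kilobase, clear of Il6st (lowest 10.2) with a highest animal at 8.97. Cntf (1.1), Osmr (0.605) and Il6ra (0.407) were lower and overlapped in that order, and Socs3 (0.212) and Lif (0.169) were the lowest and overlapped with each other. Lifr, Cntfr and Il6st were thus measured far above both ligands and the inhibitor, while the receptor chains Osmr and Il6ra were not. The mean CPM of Lif (0.68) and of Socs3 (0.54) lay only a few rounding steps above 0. Which transcript form was present is not known from a gene-level table.

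**Figure D1:**
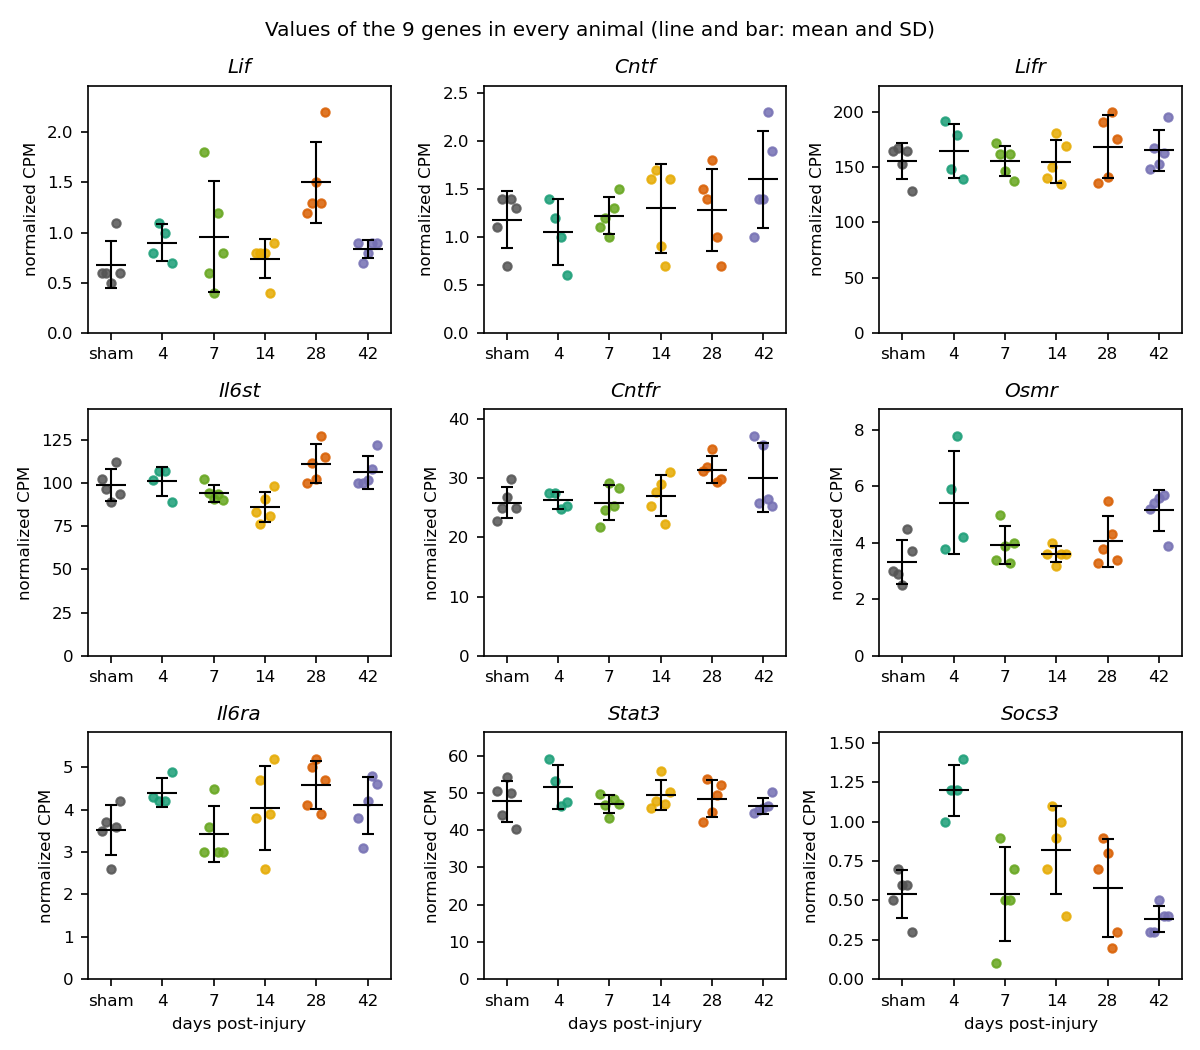
Normalized CPM of the 9 measured genes (vertical axes, each from 0) in every animal by group (horizontal axis, sham and days post-injury). Points are animals, the horizontal line is the group mean and the bar the SD. All 5 Lif values at 28 dpi (1.2 to 2.2) and all 4 Socs3 values at 4 dpi (1.0 to 1.4) lie above the sham animals.

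Lif (chr11:4257557-4272514, plus strand, mm10) rose at 28 dpi, with the largest difference among the members that passed against sham. The sham animals had 0.6, 0.6, 0.5, 1.1 and 0.6 CPM. At 28 dpi the values were 1.2, 1.3, 1.5, 1.3 and 2.2. The 2 groups did not overlap, which held in this direction for 6.15% of all genes at that time point. The mean rose from 0.68 ± 0.239 to 1.5 ± 0.406 (SD, n = 5 each), a log2 fold change of 0.76 (SE 0.197, adjusted p = 0.00745). The exact two-sided permutation test gave p = 0.00794, the smallest it can give for 5 against 5. The study itself had picked out Lif on these same samples, so this call is not independent evidence.

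Before 28 dpi the Lif values lay mostly inside the sham range. They were 0.8, 1.1, 1.0 and 0.7 at 4 dpi and 0.8, 0.8, 0.8, 0.4 and 0.9 at 14 dpi. At 7 dpi they spread from 0.4 through 0.6, 0.8 and 1.2 to 1.8, the widest group, with 2 animals above every sham animal. At 42 dpi they were back within the sham range at 0.9, 0.7, 0.8, 0.9 and 0.9. Lif was higher at 28 than at 14 dpi (0.69, SE 0.197, adjusted p = 0.00615), without overlap in the animals, as were 10.2% of all genes in that direction. From 28 to 42 dpi the groups also did not overlap, as for 0.924% of all genes that were lower at 42 dpi, but the difference missed the threshold over all genes (-0.56, SE 0.197, adjusted p = 0.107).

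Ribosomal RNA also varied between libraries and groups. Rn18s-rs5, an 18S ribosomal RNA gene, ranged from 30321 to 52929 CPM in sham and from 44755 to 779160 at 28 dpi, where 4 of 5 animals exceeded the sham range. So did 1 of 4 animals of the 4 dpi group (114026), 3 of 5 in each of the 7 and 14 dpi groups and all 5 of the 42 dpi group. The remaining 28 dpi animal, at 44755, had a Lif value of 1.5, also above every sham animal. Of the 4 rRNA-linked genes of the quality list (Rn18s-rs5, AY036118, Mir6240 and Lars2), all 4 passed higher at 28 dpi with a median log2 fold change of 2.71, and AY036118, Mir6240 and Lars2 were above every sham animal in all 5 animals, this one included. At 14 dpi, where Rn18s-rs5 reached 817780, no Lif value exceeded 0.9. With log2 Rn18s-rs5 as a covariate the Lif difference was 0.61 (adjusted p = 0.149), a fit in which no gene of the table passed at 28 dpi. With the 4 animals left out, an alternative chosen after the values were seen, it was 0.78 on the 1 animal left, which is assumed to vary like the other groups. The loss of a call with 1 animal in the group was close to fixed in advance, so the text gives only differences from that fit.

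**Figure D2:**
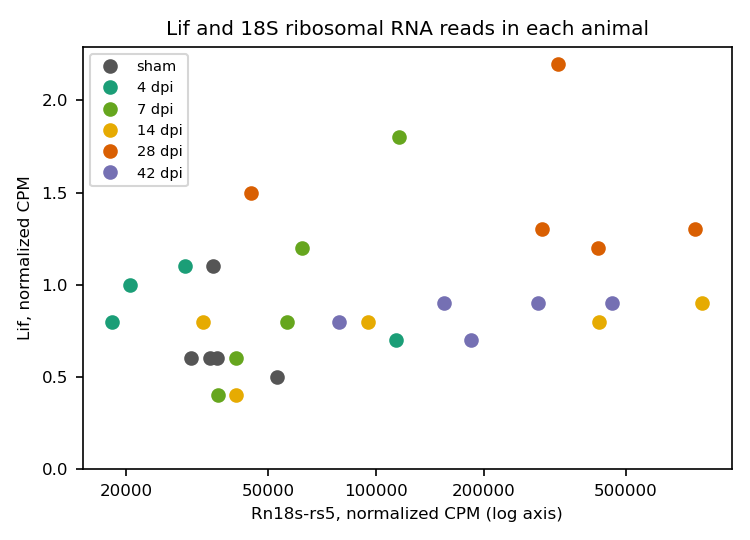
Lif (vertical axis, normalized CPM) against Rn18s-rs5 (horizontal log axis, normalized CPM) in each of the 29 animals, coloured by group. The 28 dpi animals are at 1.2 or more on the Lif axis over a Rn18s-rs5 range of 44755 to 779160.

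The call for Lif was also lost under a rescaling of the libraries, but not when the 20 highest genes were left out of the sum used. After rescaling all libraries to 1 common sum the Lif difference was 0.26 (adjusted p = 0.387), while the median of all genes moved to -0.73, so Lif stood 0.99 above that median. In the 9 other refits it stayed between 0.57 and 1.1 and passed, the low end with a pseudocount of 1 and the high end with 0.05. Leaving out each of the 29 animals in turn gave 0.65 to 0.88, with adjusted p between 0.00393 and 0.0282. Lif had a mean under 1 and was not tested when genes of such low mean were removed.

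**Figure D3:**
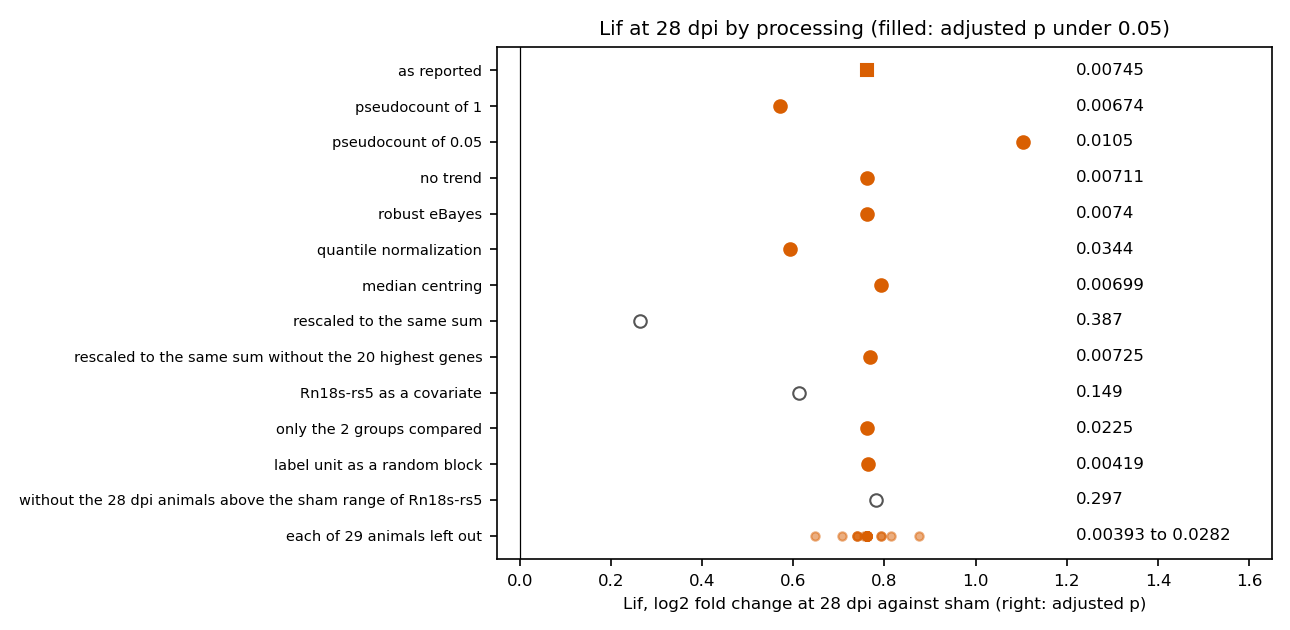
Log2 fold change of Lif at 28 dpi against sham (horizontal axis) under each way of processing (rows), with the adjusted p at the right. Filled points have an adjusted p under 0.05, and the open points are rescaling to the same sum (0.26), Rn18s-rs5 as a covariate (0.61) and the fit without 4 of the 28 dpi animals (0.78).

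Cntf (chr19:12763660-12765632, minus strand), the ligand made by astrocytes and Schwann cells, showed no such step. Its values were 0.7 to 1.4 CPM in sham and 0.7 to 1.8 at 28 dpi, and the highest group mean was at 42 dpi (1.60 ± 0.505 against 1.18 ± 0.295 in sham, adjusted p = 0.514). Its log2 fold changes against sham ran from -0.12 at 4 dpi to 0.31 at 42 dpi. The gene sits inside the annotated span of Zfp91 on the same strand, and 78.4% of its 31-base words also occur in Zfp91 transcripts, so reads of the 2 genes could be split between them and the value of Cntf is uncertain. No other measured member shared more than 3.17% of its words with other genes.

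Among the receptor chains, Cntfr (chr4:41657498-41697089, minus strand) was the other member that passed at 28 dpi. Its values in sham were 22.8, 25, 26.8, 29.9 and 25 CPM. At 28 dpi they were 31.2, 31.9, 35.0, 29.3 and 29.8, so 3 of 5 animals lay above every sham animal. The log2 fold change was 0.28 (SE 0.102, adjusted p = 0.0459, exact permutation p = 0.0238), but it was -0.50 after rescaling to the same sum, 0.23 above the median of all genes there. With the 20 highest genes left out of that sum it was 0.29 (adjusted p = 0.0394). The call at 0.28 sat at the threshold. It was lost in 12 of the 29 fits with 1 animal left out, among them 4 of the 5 without a sham animal and each of the 5 without a 28 dpi animal (adjusted p up to 0.101). It was also lost with Rn18s-rs5 as a covariate (0.30, adjusted p = 0.175) and with no trend (adjusted p = 0.0602). Without the 4 animals of high Rn18s-rs5, on 1 animal at 28 dpi, the difference was 0.43. At 42 dpi the animals split into 37.2 and 35.6 against 25.9, 26.5 and 25.3.

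Thus 2 of 9 members, Lif and Cntfr, passed at 28 dpi against sham, both higher, where 24.9% of all genes passed and 11.9% passed with a higher value. Lif alone also had a fold change above 1.5. Il6ra (chr3:89864059-89913196, minus strand) and Il6st were higher by an unadjusted p under 0.05 but missed the threshold over all genes, which makes 4 of 9 members by that measure, where 38.5% of all genes passed it. Il6st passed with quantile normalization (0.20, adjusted p = 0.0426) and in 2 of the 29 fits with 1 animal left out, and passed with a lower value after rescaling to the same sum (-0.62, adjusted p = 0.0298, 0.11 above the median of all genes there). Il6ra was 3.5, 3.7, 2.6, 3.6 and 4.2 CPM in sham and 4.1, 5.0, 5.2, 3.9 and 4.7 at 28 dpi (0.34, SE 0.145, adjusted p = 0.0799), and -0.35 after rescaling to the same sum, 0.37 above the median of all genes there. The differences of Lifr, Cntf, Osmr, Stat3 and Socs3 at 28 dpi lay between 0.01 and 0.26, each with a 95% interval that included 0.

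**Figure D4:**
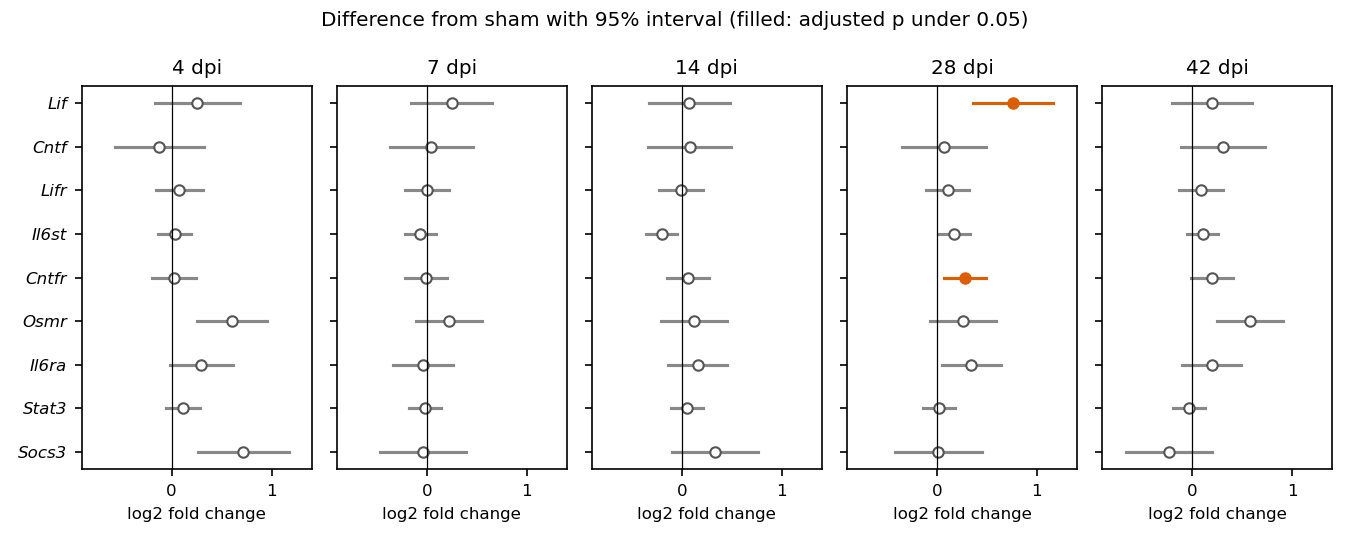
Log2 fold change of each of the 9 genes (rows) against sham (horizontal axes) at the 5 time points, with 95% intervals from the limma fit. The 2 filled points, Lif (0.76) and Cntfr (0.28, but -0.50 after rescaling to the same sum, with all genes at -0.73) at 28 dpi, have an adjusted p under 0.05.

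Il6st (chr13:112464070-112510086, plus strand), which codes for gp130 itself, moved between 14 and 28 dpi. At 14 dpi the values were 82.9, 76.3, 90.9, 81.1 and 98.0 CPM, and at 28 dpi 99.8, 111.3, 102.2, 127.3 and 115.2. The 2 groups did not overlap, as for 10.2% of all genes in this direction, with a log2 fold change of 0.37 (SE 0.077, adjusted p = 0.000366). The sham animals, at 102.5, 96.2, 88.9, 112.3 and 93.5, lay between them and overlapped both. Against sham the difference was -0.20 at 14 dpi (SE 0.077, adjusted p = 0.392), with 3 of 5 animals below every sham animal, and 0.17 at 28 dpi (SE 0.077, adjusted p = 0.0991). At 42 dpi the values were 99.9, 99.8, 101.4, 107.9 and 122.1.

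From 14 to 28 dpi, 2 of 9 members passed, Lif and Il6st, both higher, while 43.0% of all genes passed in that step. After rescaling to the same sum the Il6st difference was 0.11 (adjusted p = 0.831) and that of Lif 0.50 (adjusted p = 0.266), against a median over all genes of -0.22. With quantile normalization Lif missed the threshold (0.47, adjusted p = 0.0597). Without the 4 animals of high Rn18s-rs5, on 1 animal at 28 dpi, the differences were 0.26 for Il6st and 0.71 for Lif. With Rn18s-rs5 as a covariate both passed, Il6st at 0.36 (adjusted p = 0.000995) and Lif at 0.63 (adjusted p = 0.0150). From 28 to 42 dpi no member passed in the limma test, where 1.94% of all genes did. By an unadjusted p under 0.05 it was 1 of 9 (Lif), against 21.1% of all genes.

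Lifr (chr15:7129559-7197489, plus strand) was the most abundant member and stayed close to its sham level. Its values were 128.3 to 167.4 CPM in sham, with the group means of the stroke animals between 155 and 169 and a widest spread at 28 dpi (136.0 to 199.7). The 95% interval of its log2 fold change at 28 dpi ran from -0.11 to 0.33. For Stat3 (chr11:100885098-100939540, minus strand) the sham values were 40.4 to 54.2 and the stroke group means 46.5 to 51.7, and the interval at 28 dpi ran from -0.14 to 0.18. After rescaling all libraries to a common sum both passed with lower values at 28 dpi (Lifr -0.68, Stat3 -0.76), where the median of all genes was -0.73. RNA levels do not measure the phosphorylation of STAT3.

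Socs3 (chr11:117966079-117970047, minus strand), the feedback inhibitor with the motif shown above, had its highest values at 4 dpi. The sham animals had 0.5, 0.7, 0.6, 0.6 and 0.3 CPM, and the 4 dpi animals 1.0, 1.2, 1.2 and 1.4. All 4 lay above every sham animal, as did 1.09% of all genes at this time point. The log2 fold change was 0.72 (SE 0.224), with an exact permutation p of 0.0159, the smallest for 4 against 5 animals, and an adjusted p over all genes of 0.372. In the later groups Socs3 ranged from 0.1 to 0.9 (7 dpi), from 0.4 to 1.1 (14 dpi), from 0.2 to 0.9 (28 dpi) and from 0.3 to 0.5 (42 dpi). At 14 dpi 3 of 5 animals lay above every sham animal, the highest of them within the 4 dpi range, while all 42 dpi values lay within the sham range.

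Osmr (chr15:6813577-6874969, minus strand) had its highest group means at the first and the last time point. The sham animals had 3.0, 2.9, 2.5, 4.5 and 3.7 CPM. The 4 dpi animals had 3.8, 5.9, 7.8 and 4.2, and the 42 dpi animals 5.2, 5.4, 5.6, 5.7 and 3.9. The log2 fold change was 0.61 (SE 0.171, adjusted p = 0.272, exact permutation p = 0.0635) at 4 dpi, where 2 of 4 animals lay above every sham animal. It was 0.58 (SE 0.162, adjusted p = 0.111, exact permutation p = 0.0159) at 42 dpi, where 4 of 5 did. The 42 dpi animal at 3.9 carries the same label number (A3) as 2 of the 28 dpi animals, which had 3.3 and 3.8, and the labels do not say what this number marks. After rescaling to the same sum the difference at 42 dpi was 0.09, which is 0.62 above the median of all genes there (-0.52). Rn18s-rs5 was above the sham range in all 5 of the 42 dpi animals, and with it as a covariate the Osmr difference was 0.75 (adjusted p = 0.159). At 7 and 14 dpi the values lay between 3.2 and 5.0, and at 28 dpi between 3.3 and 5.5.

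None of the 9 members passed against sham at 4, 7, 14 or 42 dpi in the limma test. Few genes of any kind passed there, namely 0.106% (4 dpi), 0.0294% (7 dpi), 0.00588% (14 dpi) and 0.0235% (42 dpi) of the table. By an unadjusted p under 0.05, 2 members differed at 4 dpi (Osmr and Socs3), where 5.14% of all genes did. By the same measure 0 members differed at 7 dpi (5.84% of all genes), 1 at 14 dpi (Il6st, lower, against 11.6%) and 1 at 42 dpi (Osmr, higher, against 14.8%). At 42 dpi no member lay above every sham animal in all its animals, compared with 2.21% of all genes.

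Asked over all 6 groups at once by the moderated F test of limma, 4 of 9 members passed, where 31.6% of all genes did. These were Il6st (adjusted p = 0.00548), Socs3 (0.0165), Osmr (0.0196) and Lif (0.0368). Their highest group means fell at different times, 4 dpi for Socs3 and Osmr and 28 dpi for Lif and Il6st. With a pseudocount of 0.05, or without genes of a mean under 1, Il6st and Osmr were the 2 that passed. Without the 4 animals of high Rn18s-rs5 only 1 animal was left at 28 dpi, too few for this count.

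The wider pathway was followed in 82 further genes in 7 lists, 67 of them measured. At 28 dpi 12 of the 67 passed (17.9%, below the 24.9% of all genes), 4 higher and 8 lower, and their median log2 fold change was -0.04 against -0.0048 over all genes. All 12 lost their call with Rn18s-rs5 as a covariate, where no gene of the table passed. No gene of the lists passed at 7, 14 or 42 dpi, and 1 passed at 4 dpi. From 14 to 28 dpi 21 of the 67 passed (31.3%, below the 43.0% of all genes), 6 higher and 15 lower. Of the 9 further ligands, 2 were in the table, the cardiotrophins Ctf1 and Ctf2, and neither passed in any comparison. Of the 9 measured Janus kinases and other STAT genes, none passed at any time over all genes. Jak2, a kinase bound to gp130, had the lowest unadjusted p of these, at 4 dpi (-0.23, SE 0.0811, adjusted p = 0.564). Its values there lay below every sham animal in all 4 animals, as for 0.612% of all genes, and likewise in all 5 animals at 7 dpi (-0.19, adjusted p = 0.796), as for 0.583%. In the other direction, Csf3r of the related receptors was 1.5 to 2.8 CPM in sham and 3.3 to 5.8 at 4 dpi. Ptpn6 of the inhibitors was 0.6 to 1.4 in sham and 1.7 to 3.1 at 4 dpi. Both lay above every sham animal, as for 1.09% of all genes at 4 dpi, and neither passed there.

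Among the 4 measured related receptors, Lepr, the leptin receptor that also signals through STAT3, rose at 28 dpi from 4.0 to 6.4 CPM in sham to 5.6 to 8.7 (0.52, SE 0.154, adjusted p = 0.0164). Of the 13 measured inhibitors 2 passed in opposite directions. Socs2, a relative of Socs3 best known for limiting growth hormone signalling, rose (0.37, adjusted p = 0.0395), and Ptpn2, a phosphatase of Janus kinases and STATs, fell (-0.35, adjusted p = 0.0387). In the 14 genes of the ERK and PI3K arm, which gp130 also feeds, Sos1, an activator of Ras, rose (0.28, adjusted p = 0.0309), while Hras itself (-0.32, adjusted p = 0.0451) and the kinase Map2k1 (-0.27, adjusted p = 0.00577) fell. Without the 4 animals of high Rn18s-rs5, on 1 animal at 28 dpi, the differences of Lepr (0.18), Sos1 (0.14) and Map2k1 (-0.17) were smaller. That of Hras was then 0.076. The Hras call was lost in 9 of the 29 fits with 1 animal left out. After rescaling to the same sum Lepr, Socs2 and Sos1 had negative values (-0.21, -0.36 and -0.51), each above the median of all genes (-0.73).

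Of the 20 measured STAT3 targets, 5 passed at 28 dpi, 4 of them lower, a share near the 24.9% of all genes that passed. Sbno2, which STAT3 induces in astrocytes, rose (0.36, adjusted p = 0.0312), with -0.38 after rescaling to the same sum, where the median of all genes was -0.73. The 4 that fell were the immediate early gene Fos (-0.66, adjusted p = 0.0406), the survival gene Bcl2l1 (-0.21, adjusted p = 0.0198), the kinase Pim3 (-0.25, adjusted p = 0.0400) and Vegfa, which drives vessel growth (-0.32, adjusted p = 0.0327). Fos, the fifth of these by p, was named after its value was seen. Without the 4 animals of high Rn18s-rs5, on 1 animal at 28 dpi, the Pim3 difference was 0.0060 and that of Vegfa -0.042. In the list of neuronal injury genes, 1 of 5 measured passed, the growth cone gene Gap43 (-0.59, adjusted p = 0.00463). It was -0.29 on the 1 animal left without those 4 animals and -0.43 (adjusted p = 0.146) with the covariate. The median log2 fold change of the 20 targets at 28 dpi, where Lif was highest, was -0.08.

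**Figure D5:**
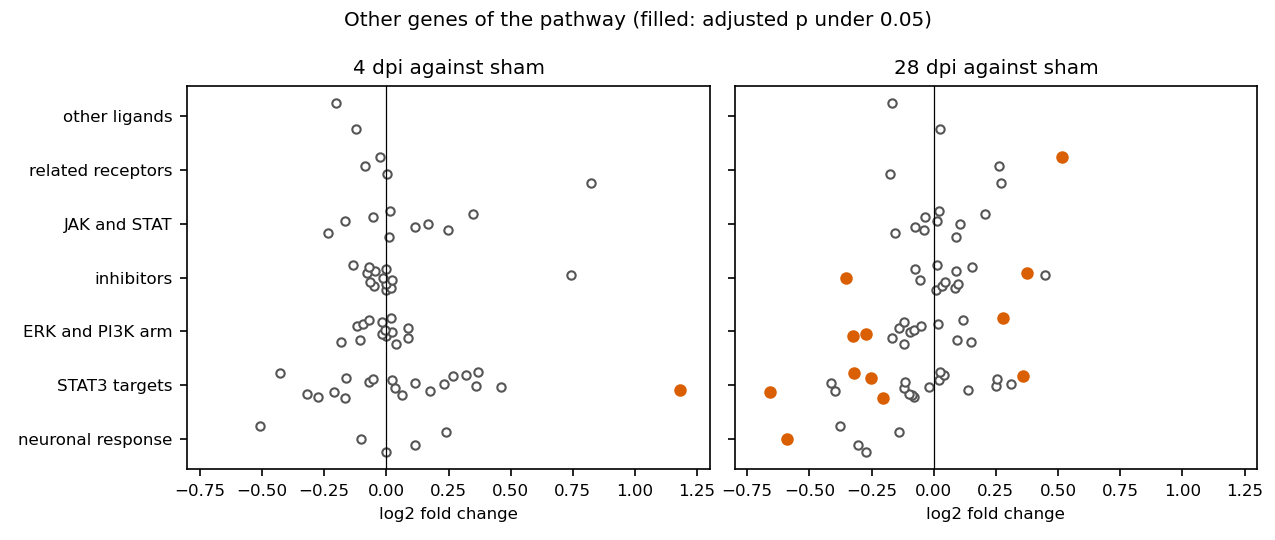
Log2 fold changes (horizontal axes) of the 67 measured pathway genes in 7 lists (rows) at 4 dpi and at 28 dpi against sham. Filled points have an adjusted p under 0.05, Gfap alone at 4 dpi (1.18) and 12 genes at 28 dpi, 4 to the right and 8 to the left of 0.

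Gfap, the intermediate filament of reactive astrocytes and a STAT3 target, was the pathway gene that passed at 4 dpi. Its values were 116.9 to 303.3 CPM in sham and 277.5 to 584.3 at 4 dpi (1.18, SE 0.250, adjusted p = 0.0480). The call sat at the threshold. It was lost in 8 of 13 other settings (adjusted p up to 0.260) and in 19 of the 29 fits with 1 animal left out, with an adjusted p of up to 0.477 without the 4 dpi animal A10-4. At 28 dpi, where Lif was highest, Gfap was 144.8 to 249.2.

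Markers of the cell types in the piece were checked against the same groups. All 6 astrocyte, 6 microglia, 6 oligodendrocyte, 6 neuron and 4 motor neuron markers were measured, and none of the 5 sums was at 0 in any group, while 1 of 4 Schwann cell markers was measured. The summed microglia markers were 70.0 to 78.0 CPM in sham and 83.0 to 126.5 at 4 dpi, where Socs3, Osmr and Gfap had their highest group means. Pituitary markers, 4 of 5 measured, summed to 2.5 to 4.3 CPM in sham and 4.5 to 19.3 at 4 dpi, with Prl and Gh above every sham animal in all 4 animals and none passing. At 28 dpi the microglia sum was 63.3 to 93.8, with 2 of 6 markers passing higher (Cx3cr1 and Siglech). In the same group 5 of 6 oligodendrocyte markers passed lower, and 1 astrocyte marker passed higher and 3 lower. Of 6 neuron and of 4 endothelial markers, 1 each passed higher and 1 lower. Of 5 fibroblast markers 1 passed, Col1a1 (0.61, adjusted p = 0.0333), with a list median of 0.14. The part of these shifts in the values of the members was not tested.

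Within groups, after subtracting group means, the members fell into loose sets over the 29 animals. Lifr ran with Il6st (r = 0.73) and with Stat3 (r = 0.69). Il6st ran at least as closely with genes outside the pathway, such as Ank2 (r = 0.75) and Arhgap35 (r = 0.76), so such values are not particular to the members. Lifr and Stat3 each ran with Chat of motor neurons (r = 0.69 for both), while Lifr (r = -0.64) and Il6st (r = -0.69) ran against the neuronal gene Snap25. Cntfr did not run with Lifr (r = -0.19). Lif ran with Il6st (r = 0.49), against Socs3 (r = -0.47) and with Col1a1 (r = 0.73), but less with Rn18s-rs5 (r = 0.22) or Dcn (r = 0.12), another fibroblast gene. The Chat, Snap25 and Col1a1 values given here were the largest in size among all pairs of a member and a marker gene compared. All these r values are descriptions, since the genes of an animal share 1 library and 1 dissection. Over all 29 animals and 15495 genes with a mean of at least 1, the profiles most like that of Lif were Slc9a8 (r = 0.79), Vars (0.75), Cabin1 (0.73), Aff1 (0.71) and Fasn (0.71).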

How the data were processed

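Per the labels and the study's methods, RNA was ribosome-depleted and sequenced with a kit that does not mark strand, quantified against mm10 with SALMON and Tximport and normalized with edgeR by the authors (R 3.4.1 and edgeR 3.14.0 in the submitters' processing notes), who also removed low genes. The deposited values are a score, normalized CPM rounded to 0.1. Column sums ran from 714597 to 2256910 and medians from 10.2 to 11.2, and depth is unknown. The authors' own comparison columns (log2 fold changes, log2 mean CPM, test statistics, p values and calls) were not used. Of 30 labelled animals 29 were analysed, and A9-3 (4 dpi) is not analysed here. Nothing in the labels says that animals share a culture or litter.

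Log2(value + 0.5) was fitted with limma 3.58.1 (R 4.3.3, 6 group means, trended eBayes) and tested on simulated data. Exact tests compared group means of the log2 values over all arrangements, doubling the smaller tail, and are not adjusted for the 45 made against sham. All time points share the same 5 sham animals. Members and lists were chosen with earlier results of these data known. All 9 members and the pathway genes that passed against sham (up to 4 per list and comparison by p, plus Fos) were named, plus the 5 genes most correlated with Lif. Jak2, Csf3r and Ptpn6 did not pass against sham and were named after their values were seen, as were Ank2 and Arhgap35. Gene positions are the table's, and Lifr has an earlier start in GENCODE M21. RefSeq promoters and GENCODE M21 transcripts are GRCm38. Alternatives are listed with their effect in the closing section.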

Additional observations from a re-analysis of the deposited data

Results flagged for a closer look

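In 54 sets of 4 or 5 animals (9 genes, 6 groups), 4 had 1 animal farther from the rest than Dixon's limit, and chance alone gives about 1 in 20. Lif was 1.1 CPM in the sham animal A12-2, with the others at 0.5 to 0.6, and 0.4 in the 14 dpi animal A6-2, with the others at 0.8 to 0.9. Osmr was 3.9 in the 42 dpi animal A3-4, with the others at 5.2 to 5.7. Il6ra was 4.9 in the 4 dpi animal A9-4, with the others at 4.2 to 4.3.

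The stroke effect differed between time points for Lif and Il6st by a test of the difference itself, which is the same as comparing 28 with 14 dpi because both share the sham group. The difference was 0.69 for Lif (adjusted p = 0.00615) and 0.37 for Il6st (adjusted p = 0.000366), with no overlap between the animals of the 2 time points in either gene. Of all genes 43.0% passed in that step and 10.2% did not overlap in that direction. Both calls were lost after rescaling to the same sum (Lif 0.50, adjusted p = 0.266, and Il6st 0.11, adjusted p = 0.831). Without the 4 animals of high Rn18s-rs5, on 1 animal at 28 dpi, the differences were 0.71 for Lif and 0.26 for Il6st. Quantile normalization ended the Lif call (0.47, adjusted p = 0.0597).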

How the results depend on the processing

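The count of members passing at 28 dpi (2) was 1 with a fold limit of 1.5 as well (Lif), with no trend (Lif) and without genes of a mean under 1 (Cntfr). It was 0 with Rn18s-rs5 as a covariate. Rescaled to the same sum it was 3, but these were Lifr, Il6st and Stat3, all lower, as were 66% of all genes there. It was 1 to 3 with 1 animal left out. From 14 to 28 dpi the count (2) was 1 with the fold limit (Lif) and with the mean filter (Il6st). It was 0 when rescaled to the same sum and 3 with quantile normalization or median centring. Over the 6 groups the count (4) was 2 with a pseudocount of 0.05 or the mean filter and 3 with the covariate. It was 5 with median centring or rescaled to the same sum. The fit without the 4 animals of high Rn18s-rs5 left 1 animal at 28 dpi, too few for counts that rest on this group. Lif at 28 dpi was 0.26 when rescaled and 0.61 with the covariate, both without a call. It was 0.78 on the 1 animal left without the 4 animals. The causes were not tested, apart from the smaller group and the fewer genes tested that these settings bring. The counts of 0 at 4, 7, 14 and 42 dpi and from 28 to 42 dpi held under all 14 alternatives and all 29 omissions.

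Rescaling to the same sum, which moved the median of all genes at 28 dpi to -0.73, gave negative values for Cntfr (-0.50), Il6st (-0.62, adjusted p = 0.0298), Il6ra (-0.35), Lepr (-0.21), Socs2 (-0.36), Sos1 (-0.51) and Sbno2 (-0.38), each 0.11 to 0.51 above that median. With the 20 highest genes left out of the sum, that median was 0.0036 and all these genes had positive values. Without the 4 animals, on the 1 animal left at 28 dpi, Hras was at 0.076 and Pim3 at 0.0060, which gives no direction. Of the 23 other named values, 13 kept their direction and lost their call with the covariate. So did 8 with only the 2 groups compared, 6 with quantile normalization, 5 with no trend and 3 with median centring. The same held for 3 rescaled to the same sum and for 1 or 2 with 3 other settings. Some of the 23 had no call to lose. These were Lif from 28 to 42 dpi, Il6st against sham at 14 and 28 dpi, Il6ra at 28 dpi, Socs3 at 4 dpi and Osmr at 4 and 42 dpi. Of the others, the only calls kept with the covariate were Lif and Il6st from 14 to 28 dpi and Gfap at 4 dpi. Gfap at 4 dpi lost its call in 8 of 13 settings. With the first number of the animal label as a random block (fitted correlation -0.044) no call changed. This cannot show an effect shared by a whole group, since each number but A3 lies within 1 group. Of the 12 pathway genes called at 28 dpi, Map2k1 and Gap43 kept their call in all 29 omissions of an animal (though not with the covariate). The others lost it in 2 to 9. No paired analysis was possible because no animal name recurs between groups. The first label number A3 occurs at both 28 and 42 dpi, but no other number is shared. Values under 1 CPM, as for Lif and Socs3, are limited by the rounding step of 0.1, and read depth is unknown.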
